A study of Mus musculus with 20 samples.

Results

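Aminoacyl-tRNA synthetases are the enzymes that join each amino acid to its transfer RNA before translation. Their transcripts were followed here from the mouse oocyte to the blastocyst. All probe sets with 1 gene symbol made of an amino acid letter and "ars", with or without a final a, b, 1 or 2, were taken, together with Eprs. This gave 26 of the 12393 genes on the array that had a probe set of their own symbol, with 48 of the 22626 probe sets other than controls, and 44 of the 48 passed the intensity filter described below. The rule reads symbols and no measured value, though the family was picked with earlier results of these data known. Enzymes whose symbols end in 2 act in mitochondria (Ears2, Fars2, Hars2, Iars2, Pars2, Rars2, Sars2 and Tars2, 8 genes with 13 probe sets), and the other 18 genes with 35 probe sets are called cytosolic here. Gars and Kars encode both a cytosolic and a mitochondrial form and were counted as cytosolic. Synthetase genes outside this choice were not analysed here.

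Each array measured the RNA of oocytes, 1-cell, 2-cell or 8-cell embryos, or blastocysts, on Affymetrix MOE430A arrays. Every stage had 4 of the 20 arrays. The RNA of every stage was amplified by repeated in vitro transcription, as the labels state. The labels name no mouse strain, age or culture condition, no number of oocytes or embryos behind an array, and do not say whether replicates were separate collections. The p-values therefore describe the spread among the arrays at hand, and this spread may be technical. Levels are relative to the total signal of an array, so fewer cells of a type and less RNA per cell cannot be told apart.

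Cytosolic synthetases charge the transfer RNAs read by ribosomes in the cytosol, and several of them (Eprs, Iars, Lars, Qars, Kars and Rars among them) sit in the multisynthetase complex, held by the scaffold proteins Aimp1, Aimp2 and Eef1e1. Mitochondrial synthetases are encoded in the nucleus, imported, and charge the transfer RNAs that mitochondria encode. The oocyte carries stored maternal mRNA, much of which is degraded before and during activation of the embryonic genome, and in the mouse the main activation takes place in the 2-cell embryo. Outside the embryo, many cytosolic synthetase genes are known targets of ATF4, the transcription factor that the kinase GCN2 (Eif2ak4) brings into play when uncharged transfer RNAs build up.

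Because ATF4 is a known regulator of this family, the promoters were searched for TGATGNAA, the core of the C/EBP-ATF response element that ATF4 binds, on both strands (TTNCATCA on the other strand), with no other motif searched. RefSeq promoters of GRCm38.p6, 250 bases before to 50 after the annotated start, were at hand for 17 of the 26 genes. The motif was present in 5 of 11 cytosolic and 0 of 6 mitochondrial genes with a promoter, against 4.51% of all 27025 genes in the table. Among the genes of the amino acid response list described further on, 6 of 23 held it. The 5 promoters are shown because they hold every match among the synthetases. Each is cut to 180 bases on the strand of the gene, and the match is in capitals. The regions are chr8:111033712-111033891 (plus strand, Aars), chr6:55037871-55038050 (plus strand, Gars), chr13:49682000-49682179 (plus strand, Iars), chr15:11399609-11399788 (minus strand, Tars) and chr4:129189773-129189952 (plus strand, Yars).
Aars: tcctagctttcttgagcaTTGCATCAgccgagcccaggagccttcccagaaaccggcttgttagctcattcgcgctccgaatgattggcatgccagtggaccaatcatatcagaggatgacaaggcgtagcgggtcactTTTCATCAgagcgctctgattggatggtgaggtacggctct
Gars: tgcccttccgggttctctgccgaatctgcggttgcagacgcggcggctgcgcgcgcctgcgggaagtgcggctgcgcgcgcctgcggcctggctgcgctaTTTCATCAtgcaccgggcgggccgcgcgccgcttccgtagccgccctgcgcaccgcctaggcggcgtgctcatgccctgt
Iars: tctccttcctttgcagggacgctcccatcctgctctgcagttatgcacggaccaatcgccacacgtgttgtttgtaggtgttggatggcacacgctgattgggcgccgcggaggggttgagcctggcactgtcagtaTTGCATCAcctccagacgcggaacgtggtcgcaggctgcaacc
Tars: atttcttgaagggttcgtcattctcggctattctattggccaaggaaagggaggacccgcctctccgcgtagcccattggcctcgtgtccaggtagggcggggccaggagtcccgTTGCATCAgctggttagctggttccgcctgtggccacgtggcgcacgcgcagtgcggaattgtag
Yars: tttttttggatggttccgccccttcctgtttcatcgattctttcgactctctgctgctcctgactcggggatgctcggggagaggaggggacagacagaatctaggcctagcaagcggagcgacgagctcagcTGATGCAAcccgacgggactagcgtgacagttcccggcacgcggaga
Aars, for alanine, held 2 matches, starting 112 bases before the start and at base 10 after it. The matches of Gars (glycine) and Tars (threonine) lay 30 and 15 bases before the start, and those of Iars (isoleucine) and Yars (tyrosine) began at bases 8 and 4 after it. The starts used for Aars and Yars lie inside the spans of these genes in the RefSeq gene table, which begin at bases 111027778 and 129189734. A match is a run of letters and says nothing about binding. No match says only that these letters are not in this window.

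The values are linear intensities that the submitters deposited, on arrays scaled to one trimmed mean of 150.1. Changes are given on the scale log2(intensity + 12.15), which understates the change of weak signals. One probe set stands for each gene, the tested one with the highest mean. A change was called where the two-sided p of limma, adjusted by the Benjamini-Hochberg method over all 17193 tested probe sets (10251 genes), was under 0.05. Arrays of one stage correlated at 0.931 to 0.971 across probe sets. Summed intensities of stage markers followed the labels of oocytes and blastocysts: 6 oocyte markers summed to 146 to 205.6 in blastocysts, against 22544 to 25918 in oocytes, and 6 blastocyst markers to 12790 to 18382 in blastocysts, against 168.8 to 226.8 in oocytes. The 3 of 4 2-cell markers on the array summed to 2087 to 3224 in 2-cell embryos, against 455.8 to 604.9 in blastocysts. Single markers did not all peak at their own stage. Eif1a, a 2-cell marker, averaged 91.1 in 2-cell embryos and 474.8 in blastocysts. Bmp15 averaged 1369 in 1-cell embryos, against 746 in oocytes, and Gata6 1055 in 8-cell embryos, against 630 in blastocysts. Markers of cells that could come along with oocytes or embryos summed to 131.7 to 394.8 over all arrays for 7 cumulus cell genes and to 29.7 to 162.8 for 5 sperm genes. Of the cumulus markers Inha and Fshr passed the intensity filter, and Inha averaged 75.0 units in blastocysts, against 144 in 8-cell embryos and 155 in oocytes, falls of 0.83 ± 0.23 and 0.92 ± 0.23 that were called. Of 5 oviduct or blood markers 4 were on the array, and their sum was 68.3 to 165.1 in oocytes and 1-cell embryos, 282.9 to 821.1 in 2-cell embryos, 103.7 to 3174.3 in 8-cell embryos and 84 to 104.9 in blastocysts. Ovgp1 carried the higher sums, and the blood markers Alas2 and Ptprc did not pass the intensity filter. The blood marker Hba-a1 passed it, with stage means of 37.1 to 54.4 units and no called change. No listed marker was at 0 on average, and the part of these sums in the results was not tested.

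Scaling to the hybridization controls added to every array, in place of the submitters' scaling, moved the median of all tested probe sets by -0.81, 0.16, -0.43 and 0.86 at the 4 transitions in order and by -0.24 between blastocyst and oocyte. The share of called probe sets that were higher then stood at 0.73% in place of 51.1%, 65.2% in place of 51.9%, 21.7% in place of 48.0% and 95.4% in place of 43.4% at the 4 transitions. Centring on the array median moved it to 63.0% in place of 43.4% between 8-cell embryos and blastocysts. All changes below are therefore relative to the submitters' scaling.

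The medians of both classes were higher in blastocysts than in oocytes, with low points at different stages. Measured from the oocyte mean, the median cytosolic enzyme stood at 0.00 ± 0.21 on the log2 scale in 1-cell embryos, -0.59 ± 0.27 in 2-cell embryos, 0.07 ± 0.17 in 8-cell embryos and 0.92 ± 0.23 in blastocysts (SD, n = 4). The median mitochondrial enzyme stood at -0.45 ± 0.10, 0.25 ± 0.25, 0.29 ± 0.39 and 0.92 ± 0.11 at the same stages, and the median of all genes tested at 0.08 ± 0.11, 0.02 ± 0.06, 0.07 ± 0.14 and -0.18 ± 0.11. The low point thus fell in 2-cell embryos for the cytosolic and in 1-cell embryos for the mitochondrial median. The difference between the classes was not tested. By stage means, 12 of 18 cytosolic and 5 of 8 mitochondrial enzymes were highest in blastocysts, and 9 cytosolic enzymes were lowest in 2-cell embryos and 5 in 1-cell embryos. Of the 8 mitochondrial enzymes, 3 were lowest in 1-cell embryos, 2 in oocytes and 1 at each other stage, so the low point of the median was not shared by most of them. By the probe set that stands for each gene, Hars, Iars, Ears2 and Fars2 changed at all 4 transitions, and Pars2, for proline, was called at none. The other tested probe set of Ears2 was called at none of them either, as given further on. That of Fars2 was called lower in 1-cell and 2-cell embryos and was not called after. Vars passed the intensity filter on the 4 blastocyst arrays alone, and Hars2 and Iars2 on no oocyte or 1-cell array, so their later rises follow in part from the filter and the counts are given as descriptions.

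**Figure D1:**
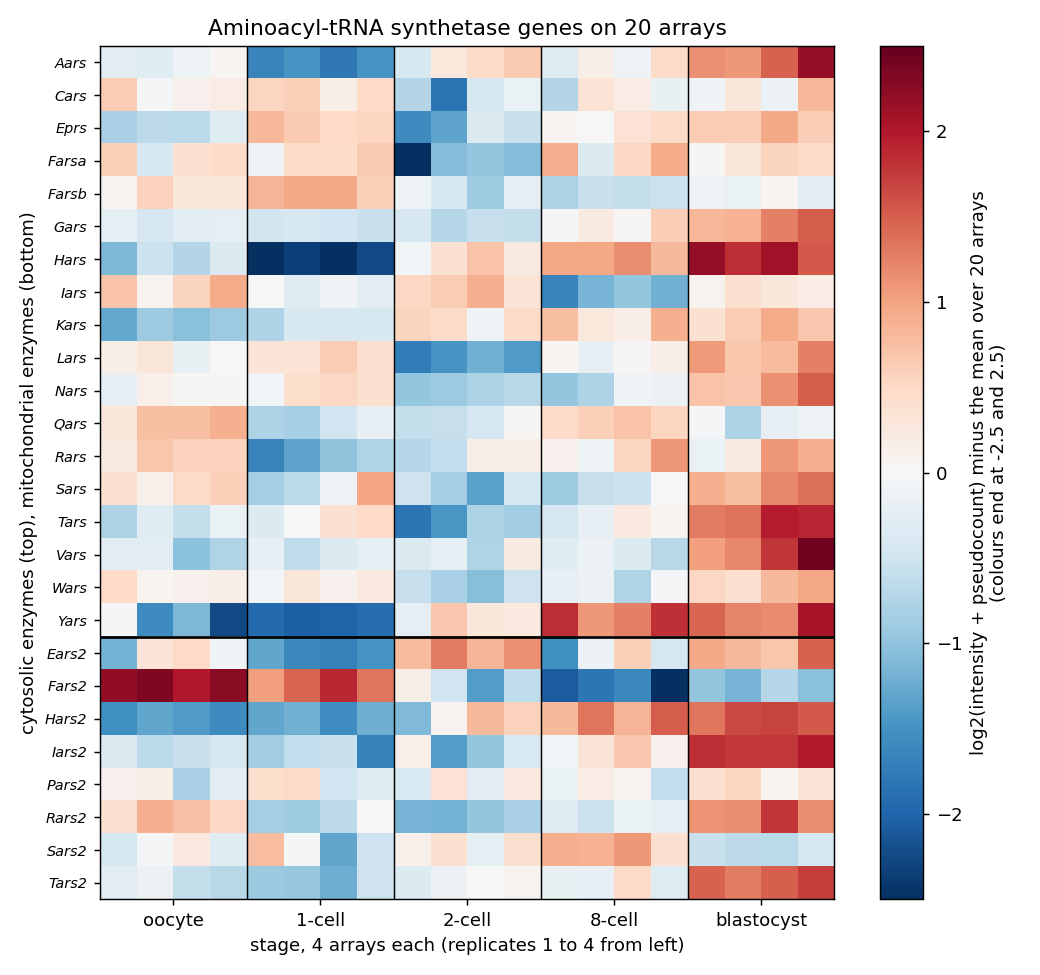
Each row is 1 synthetase gene (18 cytosolic above the line, 8 mitochondrial below it) and each column 1 of 20 arrays in order of stage. Colour is log2(intensity + pseudocount) minus the gene's mean over all arrays, so rows show change and not level. The blastocyst columns are red for most rows, Fars2 is red in oocytes and 1-cell embryos, and Hars, Aars and Yars are blue in 1-cell embryos.

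The first transition, to the 1-cell embryo, spans fertilization, when most mRNA is still maternal. Of the 18 cytosolic enzymes 3 were higher and 5 lower in 1-cell embryos than in oocytes, where 15.3% of all genes tested were called higher and 16.6% lower. The median change was 0.03 for the cytosolic enzymes and 0.09 for all genes, and the cytosolic median turned to -0.03 with arrays centred on the median and to -0.90 with arrays scaled to the hybridization controls. The 3 that rose were Eprs, Kars and Farsb. Eprs, which charges both glutamate and proline transfer RNAs, had 509.6, 449.8, 402.9 and 413.3 intensity units in 1-cell embryos, against 155.6, 172.9, 171.4 and 221.5 in oocytes. The 2 sets of values did not overlap, and the log2 change was 1.25 ± 0.21 (SE; adjusted p = 3.8e-05). Kars, for lysine, had 303, 394.4, 391.2 and 392.5 in 1-cell embryos, against 208.4, 272, 245.5 and 273.6 in oocytes. Farsb, a subunit of the cytosolic phenylalanine enzyme, had 1613.9, 1737, 1744.5 and 1359, against 943.6, 1336.4, 1092.7 and 1102.5. Neither overlapped, and the changes were small, 0.55 ± 0.18 for Kars (adjusted p = 0.0241) and 0.53 ± 0.16 for Farsb (adjusted p = 0.0134). Without oocyte replicate 1 both calls were lost (0.46 and 0.45, adjusted p = 0.0822 and 0.0544), which left 1 riser, and the Kars call was also lost without 1-cell replicate 2, 3 or 4 (adjusted p = 0.0633, 0.0573 and 0.0505). With arrays scaled to the hybridization controls both changes were negative, and neither was called.

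Hars, Rars, Aars, Qars and Iars fell. Hars, for histidine, had 17.5, 31.5, 24.6 and 34 units in 1-cell embryos, against 89.5, 139.7, 120.4 and 160.8 in oocytes. Every 1-cell value was below every oocyte value, and Hars fell by 1.83 ± 0.20 on the log2 scale (adjusted p = 5.19e-08), although its second probe set went the other way, as given further on. Rars, for arginine, had 226.6, 289.5, 366.8 and 438.6 in 1-cell embryos, against 873.8, 1215.5, 1119.6 and 1113.1 in oocytes. It fell by 1.70 ± 0.27 with no overlap (adjusted p = 1.65e-05). Aars, for alanine, had 82.7, 94.3, 74.3 and 95.5, against 231.8, 227.3, 260.8 and 296.3, and fell by 1.43 ± 0.23, again with no overlap (adjusted p = 2.02e-05). Qars, for glutamine, and Iars, for isoleucine, fell by 1.25 ± 0.19 and 0.74 ± 0.18. Among the 6 genes named above as members of the multisynthetase complex, 2 rose (Eprs, Kars), 3 fell (Iars, Qars, Rars) and Lars missed the threshold at 0.36 ± 0.17 (adjusted p = 0.113).

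None of the mitochondrial enzymes rose at this step (0 of 8 by limma, and 0 at an unadjusted p under 0.05), and 3 of 8 fell, with a median of -0.45. Tars2 was not called by the probe set used (-0.47). Its other tested probe set, 1436856_x_at, was called lower (-1.25, adjusted p = 0.000727), with means of 5.4 against 30.1 units, both under the intensity filter. Ears2, for glutamate, had 11, 6.7, 5.6 and 8.4 units in 1-cell embryos, against 13.2, 59.7, 69 and 41.8 in oocytes. It fell by 1.41 ± 0.35 (adjusted p = 0.00219) with no overlap, though oocyte replicate 1 lay close to the 1-cell values. Rars2, for arginine, had 163.8, 158.7, 188.3 and 305 in 1-cell embryos, against 399.6, 573.6, 513.6 and 436.9 in oocytes. The groups stood apart, with a log2 change of -1.22 ± 0.20 (adjusted p = 1.67e-05). Fars2, for phenylalanine, had 407.4, 546.1, 744.3 and 507.6, against 940.1, 1015.6, 804.3 and 961.5. It fell by 0.77 ± 0.25 (adjusted p = 0.02), a call that was lost without oocyte replicate 2 (adjusted p = 0.0528) or without 1-cell replicate 1 (adjusted p = 0.0815). In the 1-cell arrays the 18S ribosomal RNA control read 12665 ± 1877 units, against 195.6 ± 57.6 in oocytes (SD, n = 4 each), and its part in these results was not tested.

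The step to the 2-cell embryo moved cytosolic enzymes in both directions. In 2-cell embryos 6 of 18 were higher and 8 lower than in 1-cell embryos, where 22.0% of all genes were called higher and 22.7% lower, and the median change was -0.36 against -0.07 for all genes. Aars, Hars, Iars and Rars had each fallen at the step before and rose here, and Yars and Kars rose too. Hars had 197.8, 276.1, 351.5 and 247.5 units in 2-cell embryos, against 17.5, 31.5, 24.6 and 34 in 1-cell embryos. This was a change of 2.84 ± 0.20 with no overlap (adjusted p = 3.81e-12). The second Hars probe set, 1417024_at, changed by -0.33 and was not called (adjusted p = 0.125). Yars, for tyrosine, had 73.1, 148.5, 109.9 and 106.8 in 2-cell embryos, against 14, 12.2, 13.1 and 14.6 in 1-cell embryos. All the 1-cell values lay under the intensity filter of 33, and Yars rose by 2.21 ± 0.32 (adjusted p = 1.24e-06). Aars had 212.7, 343.2, 400.4 and 457.7, against 82.7, 94.3, 74.3 and 95.5, a rise of 1.84 ± 0.23 with no overlap (adjusted p = 1.49e-07). Rars, Kars and Iars rose by 0.94 ± 0.27, 0.84 ± 0.18 and 0.76 ± 0.18.

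The 8 that fell were Lars, Farsa, Eprs, Tars, Farsb, Cars, Nars and Wars. Lars, for leucine, had 74.5, 91, 111.4 and 94.6 units in 2-cell embryos, against 346.3, 348.3, 429.7 and 372.3 in 1-cell embryos. It fell by 1.89 ± 0.17 with wide separation of the arrays (adjusted p = 3.26e-10). Farsa, the other subunit of the cytosolic phenylalanine enzyme, had 2.8, 34.1, 37.6 and 33.8 in 2-cell embryos, against 77.9, 122.5, 121.7 and 141.6 in 1-cell embryos. There was no overlap, and Farsa fell by 1.83 ± 0.32 (adjusted p = 3.09e-05). Eprs had 86.1, 105.9, 217.8 and 187.8, against 509.6, 449.8, 402.9 and 413.3, and fell by 1.58 ± 0.21 (adjusted p = 4.65e-07). Its 2-cell values overlapped those of oocytes. Tars and Farsb fell by 1.38 ± 0.24 and 1.25 ± 0.16, Cars (cysteine) by 1.24 ± 0.29, Nars (asparagine) by 1.17 ± 0.20 and Wars (tryptophan) by 0.89 ± 0.19.

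Among the mitochondrial enzymes 3 of 8 rose and 1 fell at this step, with a median of 0.35. Ears2 had 87, 129.4, 91.1 and 114.1 units in 2-cell embryos, against 11, 6.7, 5.6 and 8.4 in 1-cell embryos, and rose by 2.54 ± 0.35 (adjusted p = 5.66e-07). Hars2 had 7.4, 32, 61.4 and 50.5, against 4.9, 6, 2.1 and 5.9. The lowest 2-cell array lay just above the 1-cell arrays, which were all under the intensity filter. Hars2 is among the 3, but its change of 1.41 ± 0.30 is given as a description. Tars2 had 58, 68, 76 and 82.4 in 2-cell embryos, against 34.2, 34, 25.8 and 49.4 in 1-cell embryos, a rise of 0.81 ± 0.21 with no overlap (adjusted p = 0.00261). Fars2 alone fell. It had 214, 133.2, 66.1 and 119.3 in 2-cell embryos, against 407.4, 546.1, 744.3 and 507.6 in 1-cell embryos, and fell by 2.02 ± 0.25 (adjusted p = 1.36e-07). Without 1-cell replicate 1 or 2 a further mitochondrial enzyme passed, which made 2 that fell.

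**Figure D2:**
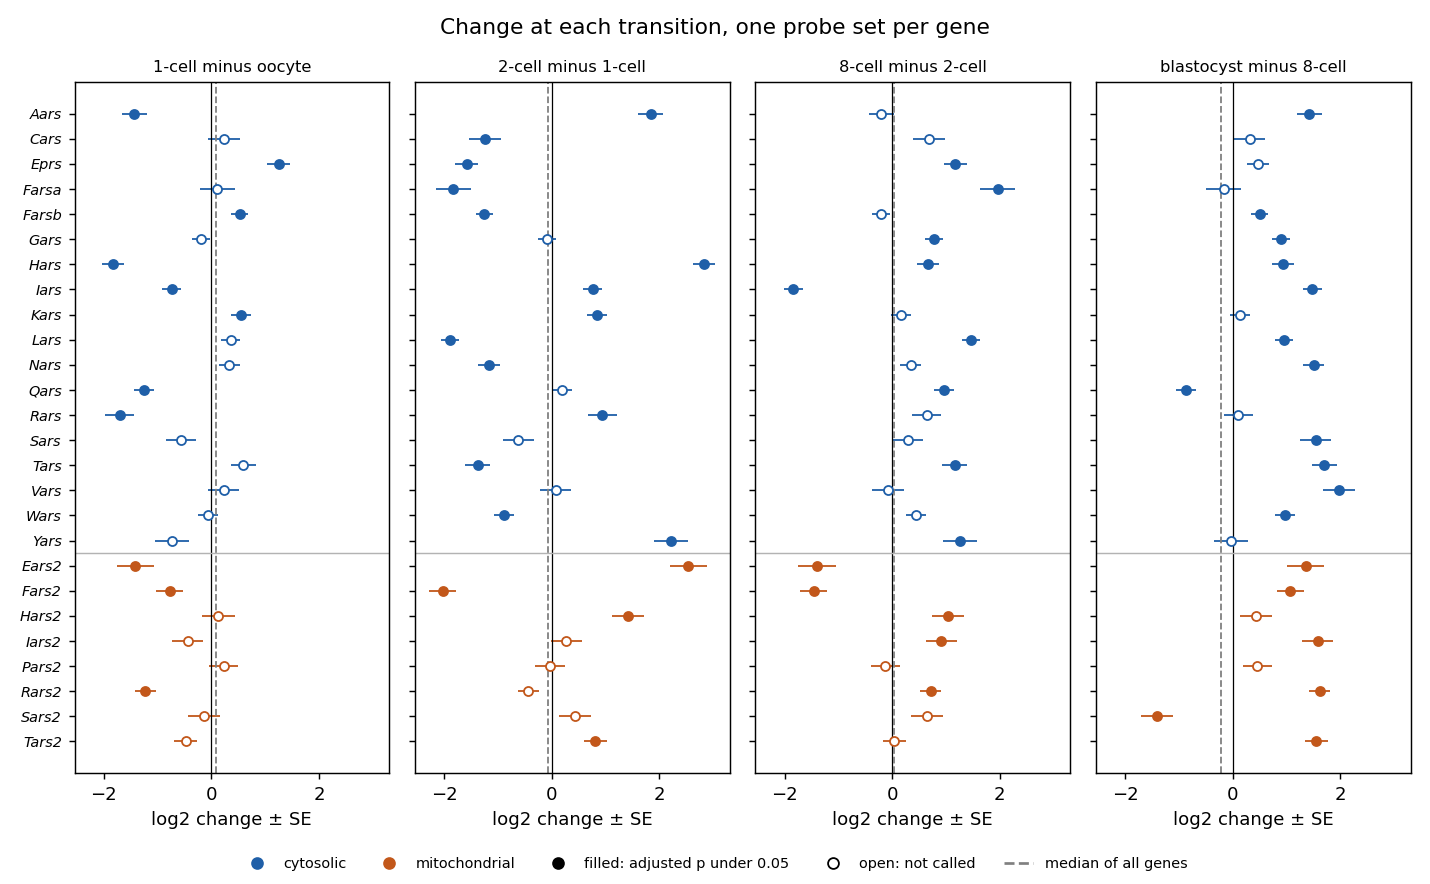
Each panel is 1 transition (later minus earlier stage), with the log2 change of each gene on the x axis, bars for the moderated standard error and filled points for an adjusted p under 0.05. Blue points are cytosolic and orange points mitochondrial enzymes, and the dashed line is the median of all genes tested. Points lie on both sides of 0 in the 2-cell panel and mostly right of 0 in the blastocyst panel, where that median is -0.22.

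Between 2-cell and 8-cell embryos the cytosolic enzymes moved mainly upwards. In 8-cell embryos 8 of 18 were higher and 1 was lower, where 22.2% of all genes were called higher and 25.7% lower, with a median change of 0.65 against 0.04 for all genes. Farsa, Lars, Eprs and Tars had fallen at the step before and rose here, Hars and Yars rose again, and Qars and Gars joined them. Farsa had 170.1, 64.7, 128 and 174.6 units in 8-cell embryos, against 2.8, 34.1, 37.6 and 33.8 in 2-cell embryos. It rose by 1.96 ± 0.32 with no overlap (adjusted p = 1.06e-05). Lars had 281.9, 234.5, 277.8 and 308.5, against 74.5, 91, 111.4 and 94.6, and rose by 1.46 ± 0.17 (adjusted p = 3.62e-08). Yars had 350.6, 200.4, 229.5 and 346.9 in 8-cell embryos, against 73.1, 148.5, 109.9 and 106.8 in 2-cell embryos. No value overlapped, and the change was 1.27 ± 0.32 (adjusted p = 0.00142). Eprs, Tars, Qars, Gars and Hars rose by 1.17 ± 0.21, 1.16 ± 0.24, 0.97 ± 0.19, 0.79 ± 0.17 and 0.66 ± 0.20. Iars went the other way, with 217.3, 313.7, 360.6 and 304.8 in 8-cell embryos, against 1030.3, 1113.1, 1322.9 and 908 in 2-cell embryos. It fell by 1.84 ± 0.18, and the groups were far apart (adjusted p = 1.45e-09). Farsb was not called by the probe set used (-0.20). Its probe sets 1423708_a_at and 1423709_s_at were called lower (-0.78 and -0.79, adjusted p = 0.00746 and 0.00038). With arrays scaled to the hybridization controls the count of rises was 2, and the cytosolic median was 0.12. The Gapdh 3′ to 5′ signal ratio was 1.28 ± 0.468 in 8-cell embryos, against 5.43 ± 0.603 in 2-cell embryos (SD, n = 4 each), and its part in these results was not tested.

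Of the mitochondrial enzymes 3 of 8 rose and 2 fell between 2-cell and 8-cell embryos, with a median of 0.34 that turned to -0.12 under scaling to the hybridization controls. Hars2 had 61.2, 93.3, 63.1 and 108.1 units in 8-cell embryos, against 7.4, 32, 61.4 and 50.5 in 2-cell embryos. The groups overlapped by 1 array, and the change of 1.03 ± 0.30 is again given as a description. Iars2 also overlapped, with 30.6, 43.9, 59.2 and 36 in 8-cell embryos, against 36.7, 5, 10.4 and 22.3 in 2-cell embryos. Its change of 0.92 ± 0.29 is also a description, and its call was lost without 2-cell replicate 2 (0.67). Rars2 had 240.1, 205.3, 267.4 and 258.7, against 128.1, 127.2, 149.3 and 166.5, and rose by 0.72 ± 0.20 with no overlap (adjusted p = 0.00305). Fars2 had 36.3, 46.2, 54.6 and 19.5 in 8-cell embryos, against 214, 133.2, 66.1 and 119.3 in 2-cell embryos. It fell for the third step in succession, by 1.46 ± 0.25 (adjusted p = 2.14e-05). Its other tested probe set, 1439406_x_at, was not called at this step (-0.28, adjusted p = 0.426). Ears2 had 7.7, 39.5, 74.7 and 30.4, against 87, 129.4, 91.1 and 114.1, and fell by 1.40 ± 0.35 with wide scatter among the 8-cell arrays (adjusted p = 0.00132).

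The last of the 4 transitions had the most enzymes called higher in both classes. In blastocysts 11 of 18 cytosolic enzymes were higher and 1 was lower than in 8-cell embryos, where 20% of all genes were called higher and 26.4% lower. The median change was 0.92 for the cytosolic enzymes, against -0.22 for all genes, and it lay between 0.81 (quantile normalization) and 1.97 (hybridization controls). Vars, for valine, had 51.3, 60, 95.2 and 153.2 units in blastocysts, against 13.2, 16.2, 12.5 and 7.2 in 8-cell embryos. Only the blastocyst values passed the intensity filter, so the filter favoured this rise, and the change of 1.97 ± 0.29 is a description although Vars is among the 11. Tars had 635.2, 667.2, 1017.2 and 980.7 in blastocysts, against 186.1, 217.5, 301.3 and 265.5 in 8-cell embryos. The arrays of the 2 stages stood far apart, with a rise of 1.71 ± 0.24 (adjusted p = 1.44e-06). Sars, for serine, had 471.8, 425.6, 587.1 and 665.8, against 128.9, 164.4, 169.2 and 251.5, a rise of 1.54 ± 0.28 with no overlap (adjusted p = 7.66e-05). The other 8 risers were Nars, Iars, Aars, Wars, Lars, Hars, Gars and Farsb, with changes between 0.50 ± 0.16 for Farsb and 1.51 ± 0.20 for Nars. The Farsb call was lost without blastocyst replicate 3 (adjusted p = 0.051). Of the other tested Wars probe sets, 1425106_a_at was called higher (1.63), while 1437832_x_at (0.18) and 1415694_at (-0.51) were not called. Qars was the single cytosolic enzyme that fell. It had 809.5, 481.3, 716.2 and 763.6 in blastocysts, against 1157.3, 1268.2, 1374.7 and 1204.8 in 8-cell embryos, and fell by 0.87 ± 0.19 (adjusted p = 0.000483), though its change turned to 0.20, not called, when arrays were scaled to the hybridization controls and was -0.07 (adjusted p = 0.797) by its probe set of largest variance. The beta-actin 3′ to 5′ signal ratio was 1.99 ± 0.325 in blastocysts, against 3.67 ± 0.234 in 8-cell embryos (SD, n = 4 each), while the Gapdh ratio went the other way, 5.81 ± 1.96 in blastocysts against 1.28 ± 0.468 in 8-cell embryos. The part of either in these results was not tested.

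Mitochondrial enzymes followed the same direction into the blastocyst, with 5 of 8 higher, 1 lower and a median of 1.21. Rars2 had 673.6, 696.1, 1070.9 and 689.3 units in blastocysts, against 240.1, 205.3, 267.4 and 258.7 in 8-cell embryos, a rise of 1.62 ± 0.20 with no overlap (adjusted p = 1.75e-07). Iars2, for isoleucine, had 148.3, 140.1, 140.6 and 165.4, against 30.6, 43.9, 59.2 and 36. Its blastocyst arrays were close to each other and well above the 8-cell arrays, and its change of 1.58 ± 0.29 is given as a description. Tars2, for threonine, had 234, 202, 238.7 and 281.7 in blastocysts, against 65.7, 65.1, 110.4 and 58.2 in 8-cell embryos. It rose by 1.56 ± 0.21, again with no overlap (adjusted p = 1.33e-06). Ears2 and Fars2 turned upwards after their 8-cell fall, by 1.36 ± 0.35 and 1.07 ± 0.25. Their other tested probe sets, 1424774_s_at and 1439406_x_at, changed by -0.40 and 0.15 and were not called. Sars2, for serine, fell to 27.8, 25.1, 24.5 and 31.2 in blastocysts, against 98, 95.3, 113.2 and 65.3 in 8-cell embryos. All 4 blastocyst values lay under the intensity filter, with a log2 change of -1.40 ± 0.30 (adjusted p = 0.000457).

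Set directly against the oocyte, the blastocyst had 12 of 18 cytosolic enzymes higher and 2 lower, where 26.2% of all genes were called higher and 33.6% lower. The median change was 0.95, against -0.20 for all genes. The largest rises were those of Yars (2.73 ± 0.32), Hars (2.61 ± 0.20), Vars (2.19 ± 0.29) and Tars (2.09 ± 0.24), with adjusted p between 1.02e-11 for Hars and 2.07e-08 for Yars. No p is given for Vars, whose entry into the test rested on the blastocyst arrays. Kars, Aars, Gars, Eprs, Nars and Lars rose by 1.69 ± 0.18, 1.64 ± 0.23, 1.41 ± 0.17, 1.32 ± 0.21, 1.01 ± 0.20 and 0.88 ± 0.17. The rises of Sars (0.65 ± 0.28, adjusted p = 0.0492) and Wars (0.47 ± 0.19, adjusted p = 0.033) were the weakest. Sars lost its call without any one of 6 of the 8 arrays (adjusted p = 0.056 to 0.133), and Wars without any one of 5 (adjusted p = 0.0605 to 0.113). Qars fell by 0.95 ± 0.19 (adjusted p = 6.78e-05) and Farsb by 0.43 ± 0.16 (adjusted p = 0.0255), and the call of Farsb was lost without oocyte replicate 2 (adjusted p = 0.101) and without blastocyst replicate 2 or 4 (adjusted p = 0.051 and 0.0667). Farsa, Cars, Rars and Iars ended at 0.08 ± 0.32, 0.00 ± 0.29, -0.02 ± 0.27 and -0.33 ± 0.18, none of them called, after called changes on the way. Iars was called lower without oocyte replicate 2 (-0.49, adjusted p = 0.0218) and by its other probe set (-0.67, adjusted p = 0.00366).

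In the mitochondrial class 5 of 8 were higher and 1 lower in blastocysts than in oocytes, with a median of 0.88. Tars2 rose by 1.93 ± 0.21 (adjusted p = 9.24e-09). Hars2 and Iars2, which no oocyte array brought past the filter, changed by 3.01 ± 0.30 and 2.33 ± 0.29, given as descriptions. Ears2 and Rars2 rose by 1.09 ± 0.35 and 0.67 ± 0.20, and the Ears2 call was lost without oocyte replicate 1 (0.73, adjusted p = 0.0618). Fars2 was the opposite case. It had 91.2, 79.1, 112 and 86.9 units in blastocysts, against 940.1, 1015.6, 804.3 and 961.5 in oocytes. It fell by 3.18 ± 0.25 (adjusted p = 1.47e-11), the largest fall among the 26 genes. Of the 5 genes with the promoter motif, Aars, Gars, Tars and Yars (4 of 5) were among the risers and Iars was not, and of the 6 cytosolic genes with a promoter and no motif, Eprs, Kars and Sars rose (3 of 6), beside 12 of 18 in the class. The difference between these counts was not tested.

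For 8 amino acids a cytosolic and a mitochondrial enzyme could be set side by side, in 9 pairs because the cytosolic phenylalanine enzyme has 2 subunits. The difference between the changes of the 2 genes was tested in each of the 5 comparisons by a two-sided exact permutation test over 4 and 4 arrays, 45 tests in all. The smallest p this test can give is 0.0286, and 25 tests reached it, with an adjusted p of 0.0514, so 0 of 45 passed. The values below are therefore descriptions. Among the probe sets used, glutamate gave the largest single difference. Eprs rose by 1.25 where Ears2 fell by 1.41 in 1-cell embryos, Eprs fell by 1.58 where Ears2 rose by 2.54 in 2-cell embryos, and Eprs rose by 1.17 where Ears2 fell by 1.40 in 8-cell embryos. The differences, cytosolic minus mitochondrial, were 2.66, -4.12 and 2.57. These values rest on 1 probe set of each gene. At the 2-cell step, Eprs probe set 1452157_at changed by 0.63 in place of -1.58 and Ears2 probe set 1424774_s_at by 0.17 in place of 2.54.

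For phenylalanine, Farsa ended 0.08 and Farsb -0.43 from the oocyte where Fars2 had fallen by 3.18, differences of 3.26 and 2.75. Farsa and Fars2 changed by 0.11 and -0.77 in 1-cell embryos, a difference of 0.88, and by 1.96 and -1.46 in 8-cell embryos, a difference of 3.42. For isoleucine, Iars fell by 1.84 in 8-cell embryos where Iars2 changed by 0.92, and over the whole course the difference was -2.66. For serine the largest difference came in blastocysts against 8-cell embryos, where Sars changed by 1.54 and Sars2 by -1.40, a difference of 2.94. For threonine, Tars changed by 0.59 and Tars2 by -0.47 in 1-cell embryos, and the changes were turned round in 2-cell embryos (-1.38 and 0.81). The 2 genes ended close to each other, with changes between blastocyst and oocyte of 2.09 and 1.93 and a difference of 0.16 (exact permutation p = 0.543). Arginine enzymes fell together in 1-cell embryos (Rars -1.70, Rars2 -1.22). Rars then rose by 0.94 in 2-cell embryos, where Rars2 changed by -0.44 and was not called. In 8-cell embryos the changes were close, 0.64 for Rars (not called, limma adjusted p = 0.0516) and 0.72 for Rars2 (called). In blastocysts Rars2 rose by 1.62, where Rars changed by 0.11 and was not called. For proline, Eprs changed by 1.32 between blastocyst and oocyte and Pars2 by 0.53, which was not called.

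Hars and Hars2 lie next to each other, and their spans overlap by a few bases in the RefSeq gene table. In 1-cell embryos Hars fell by 1.83 where Hars2 changed by 0.13, from values under the intensity filter in both stages. In 2-cell embryos they changed by 2.84 and 1.41, and between blastocyst and oocyte by 2.61 and 3.01, a difference of -0.40 (exact permutation p = 0.171). Hars probe set 1417024_at changed by 1.04 in 1-cell and by -0.33 in 2-cell embryos.

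**Figure D3:**
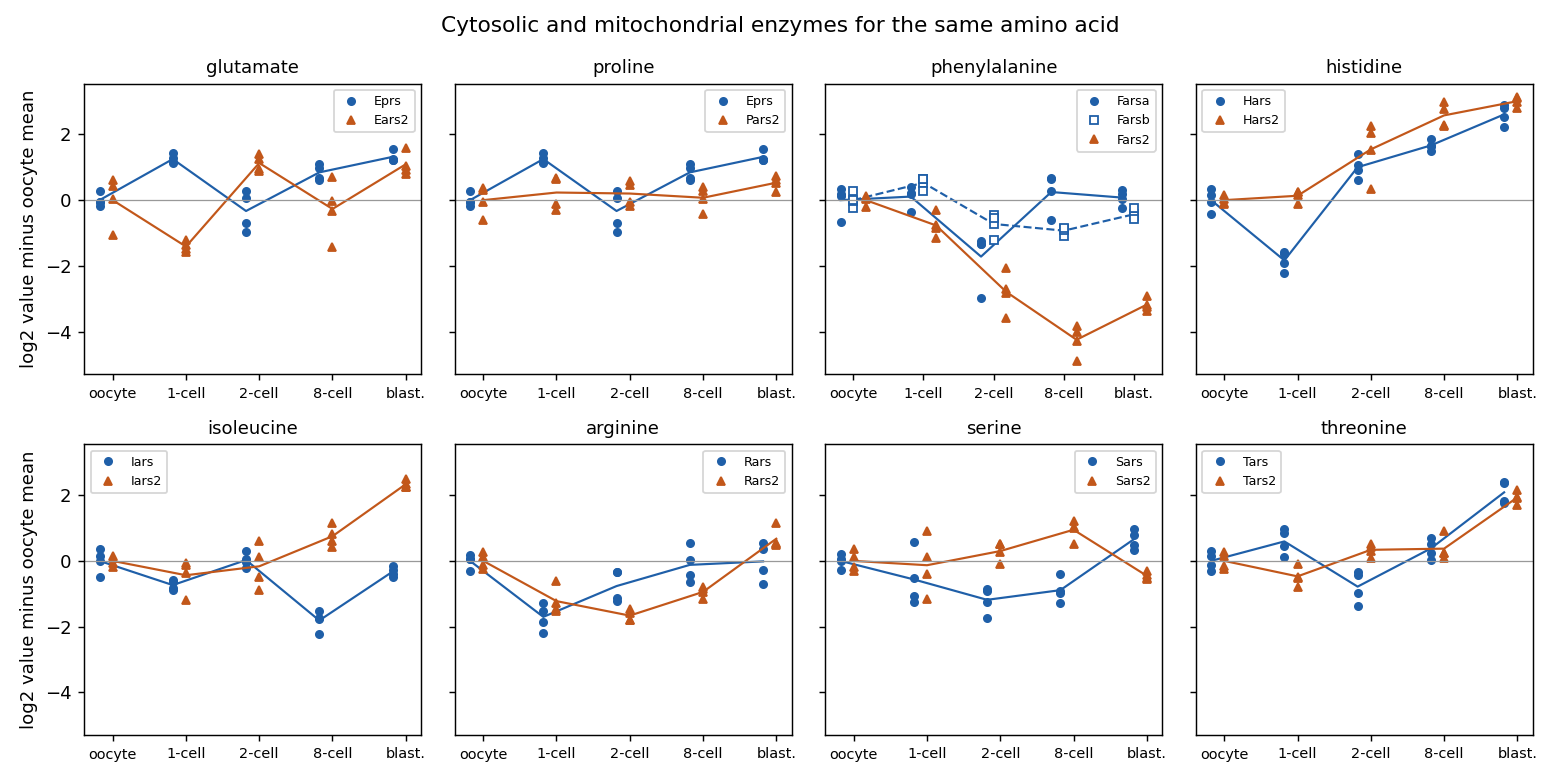
Each panel is 1 amino acid, with the stage on the x axis and log2(intensity + pseudocount) minus the gene's own oocyte mean on the y axis. Blue points and lines are cytosolic enzymes, orange ones mitochondrial, with 1 point per array and lines through stage means. Lines of the Eprs and Ears2 probe sets used run in opposite directions up to the 8-cell stage, which other probe sets of both genes did not show alike, Fars2 runs down to below -4 where Farsa returns to its oocyte level, and threonine lines end together near 2.

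Probe sets of 1 gene did not always move alike, and the comparisons above rest on 1 for each gene. There were 18 further tested probe sets. Of those whose gene was called, the same call was found for 7 of 12 in 1-cell embryos against oocytes, 8 of 14 in 2-cell against 1-cell embryos, 5 of 9 in 8-cell against 2-cell embryos, 9 of 16 in blastocysts against 8-cell embryos and 10 of 17 in blastocysts against oocytes. An opposite call was found 3 times, in 2 genes. The second Hars probe set, 1417024_at, had 211.7, 212.9, 180.5 and 167 units in 1-cell embryos, against 87.2, 84.5, 95.2 and 81.1 in oocytes. It rose by 1.04 ± 0.17 (adjusted p = 2.79e-05) where 1438510_a_at fell, and both were at their highest in blastocysts. In 2-cell embryos 1417024_at changed by -0.33, not called, where 1438510_a_at rose by 2.84. Eprs probe set 1452157_at had 100.8, 82.5, 97.7 and 97.4 in 1-cell embryos, against 102.6, 132.4, 163.4 and 240.2 in oocytes, and fell by 0.63 ± 0.21 (adjusted p = 0.0247). It then rose by 0.63 ± 0.21 in 2-cell embryos (adjusted p = 0.0172). The other tested Ears2 probe set, 1424774_s_at, changed by -0.31, 0.17, 0.35 and -0.40 over the 4 transitions and was not called, where the one used here changed by -1.41, 2.54, -1.40 and 1.36. The third Eprs probe set, 1452158_at, moved with the one that stands for the gene (0.90 and -0.80 at these steps). The direction of Hars and of Eprs in 1-cell and 2-cell embryos is thus not the same for all of their probe sets. By the probe set of largest variance Iars missed the threshold in 2-cell embryos (0.42, adjusted p = 0.077), and so did Wars (0.14, adjusted p = 0.643) and Farsb (-0.42, adjusted p = 0.135) in blastocysts against oocytes. Farsb, Qars and Wars are represented by probe sets named _x_at, and Aars, Eprs and Iars by ones named _s_at, suffixes that Affymetrix gave where probes may match further transcripts.

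**Figure D4:**
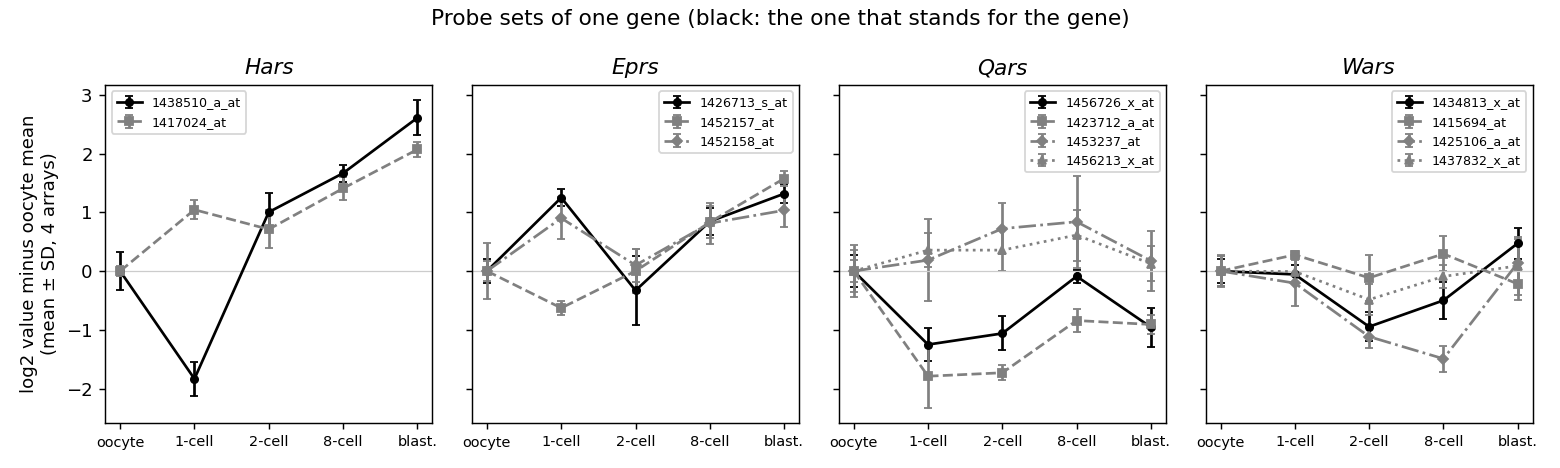
Tested probe sets of Hars, Eprs, Qars and Wars, with the stage on the x axis and the mean log2 value minus the probe set's own oocyte mean on the y axis (bars are SD over 4 arrays). Black marks the probe set that stands for the gene. The 2 Hars lines lie farthest apart at the 1-cell stage, and 1 of 3 Eprs lines dips there.

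Genes that work beside the synthetases were counted in the same way, from lists that name them by function, with the submitters' scaling only. All 3 scaffold genes of the multisynthetase complex were tested. Aimp1 fell by 2.01 ± 0.27 in 1-cell embryos (adjusted p = 1.2e-06) and rose by 3.29 ± 0.27 in 8-cell embryos (adjusted p = 5.4e-11). Eef1e1 fell by 0.64 ± 0.21 and 0.72 ± 0.21 in 1-cell and 2-cell embryos and rose by 1.78 ± 0.21 in 8-cell embryos. Aimp2 rose by 1.23 ± 0.16 in 2-cell embryos. Between blastocyst and oocyte Aimp1 (2.25 ± 0.27) and Aimp2 (1.32 ± 0.16) were higher, while Eef1e1 was not called (0.38 ± 0.21, adjusted p = 0.12).

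The cytosolic elongation factors that carry charged transfer RNA to the ribosome, recycle the carrier or move the ribosome on were tested for 4 of 5 genes. In 1-cell embryos 3 of 4 were lower (16.6% of all genes), and in 2-cell embryos 2 of 4 were higher (22.0%). In 8-cell embryos all 4 were higher (22.2% of all genes), by 1.12 ± 0.18 for Eef1a1 to 2.81 ± 0.19 for Eef1b2. In blastocysts Eef1a1 was lower than in 8-cell embryos (-0.46 ± 0.18), and 3 of 4 were higher than in oocytes (26.2% of all genes). Of 15 mitochondrial translation genes 8 were tested. Against the stage before, 1 was higher and 3 lower in 1-cell embryos, 1 higher and 2 lower in 2-cell embryos, 3 higher and 0 lower in 8-cell embryos (limma, and 0 lower at an unadjusted p under 0.05) and 3 higher and 1 lower in blastocysts. In blastocysts 4 were higher and 2 lower than in oocytes. The shares of all genes called higher and lower, in the same order of comparisons, were 15.3% and 16.6%, 22.0% and 22.7%, 22.2% and 25.7%, 20% and 26.4%, and 26.2% and 33.6%. Tufm, the mitochondrial elongation factor that carries charged transfer RNA, rose by 2.31 ± 0.29 in 8-cell embryos. Qrsl1, a subunit of the amidotransferase that makes mitochondrial glutaminyl-tRNA, rose by 1.65 ± 0.25 in both 2-cell and 8-cell embryos. Of 16 genes of tRNA maturation and synthetase relatives 9 were tested. In 1-cell embryos 4 were lower than in oocytes (16.6% of all genes). In 2-cell embryos 5 were higher and 1 lower than in 1-cell embryos (22.0% and 22.7% of all genes). In 8-cell embryos 4 were higher than in 2-cell embryos (22.2%). In blastocysts 3 were higher and 1 lower than in 8-cell embryos (20% and 26.4%). Against oocytes 4 were higher and 2 lower in blastocysts (26.2% and 33.6%). Xpot, which exports transfer RNA from the nucleus, rose by 1.46 ± 0.24 in 2-cell embryos and 2.72 ± 0.24 in 8-cell embryos.

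The amino acid response list, which holds the GCN2 kinase gene Eif2ak4, Atf4 and further genes of the response other than synthetases, had 25 of 27 genes tested and showed no single direction. It counted 7 higher and 2 lower in 1-cell embryos against oocytes, 7 and 7 in 2-cell against 1-cell embryos, 7 and 8 in 8-cell against 2-cell embryos, 5 and 6 in blastocysts against 8-cell embryos, and 8 and 7 in blastocysts against oocytes. The shares of all genes called higher and lower, in the same order, were 15.3% and 16.6%, 22.0% and 22.7%, 22.2% and 25.7%, 20% and 26.4%, and 26.2% and 33.6%. Asns, asparagine synthetase, rose by 2.14 ± 0.21 in blastocysts against 8-cell embryos. Psat1, of serine synthesis, rose by 5.20 ± 0.28 in 2-cell embryos and fell by 1.81 ± 0.28 in blastocysts. Its mean was highest in 8-cell embryos, at 2884 units, against 983.7 in 2-cell embryos. Trib3, a pseudokinase that ATF4 induces, rose by 2.74 ± 0.34 in 2-cell embryos and fell by 2.39 ± 0.34 in 8-cell embryos. Sesn2, a stress-induced regulator of mTORC1, rose by 3.96 ± 0.32 in 2-cell embryos, and its mean was 543.2 units there and 136.0 in 8-cell embryos. Atf4 itself changed by -0.51 ± 0.15, 0.61 ± 0.15, 0.34 ± 0.15 and -0.69 ± 0.15 over the 4 transitions, all but the 0.34 called, and between blastocyst and oocyte by -0.24 ± 0.15 (adjusted p = 0.18). Eif2ak4 fell by 2.01 ± 0.28 between blastocyst and oocyte (adjusted p = 4.9e-07).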

How the data were processed

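Expression was measured on 20 arrays, 4 for each of 5 stages. The deposited values are linear probe set intensities, which the authors had scaled to a common mean: with 2% trimmed at each end it was 150.05 to 150.08 on every array. The software and background step are, for these values, not given in the sources used. Of 22690 probe sets, 64 controls were left out. Gene symbols came from the platform annotation, and 20380 probe sets had 1 symbol, 691 several and 1555 none. All 26 member symbols matched the RefSeq gene table.

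Intensities were transformed as log2(value + 12.15), the pooled median (48.6) divided by 4, with no further normalization. Probe sets were kept where at least 4 arrays exceeded 33, the 40th percentile of all values. The 5 stages entered a single linear model in limma 3.58.1 (R 4.3.3; lmFit and trended eBayes, which left 15 residual degrees of freedom), and p-values were adjusted over all 17193 probe sets within a comparison. Errors of changes are moderated standard errors. The procedure was tested on simulated data. The number of arrays limits the precision.

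For each transition and class, the 3 largest called rises and falls are given with every array's value. The members and the other gene lists were chosen with earlier results of these data known, and the paired test of cytosolic and mitochondrial changes was added after seeing the data. Replicate numbers did not pair arrays across stages (correlations of deviations -0.105 to 0.104). 0 of 190 pairs of arrays were identical. Alternatives were quantile normalization, centring, scaling to 18 hybridization control probe sets, pseudocounts of 3.04 and 48.6, no filter or one at the 60th percentile (71.8), the compared stages alone, another probe set per gene, a replicate block and leaving out each array.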

Additional observations from a re-analysis of the deposited data

Results flagged for a closer look

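Among 130 groups of 4 arrays (26 genes at 5 stages), 6 held 1 value whose gap to the nearest of the others took up more of the group's range than Dixon's critical value at the 95% level allows, and chance gives about 1 in 20 groups. Eprs had 553.4 intensity units on blastocyst replicate 3, against 434.3 to 441.7 on the other arrays of the stage. Rars2 had 1070.9 on the same array, against 673.6 to 696.1. Farsa had 2.8 on 2-cell replicate 1, against 33.8 to 37.6. Kars had 303 on 1-cell replicate 1, against 391.2 to 394.4, and Nars 620.7 on the same array, against 883 to 945. Kars had 489.6 on 2-cell replicate 3, against 727.3 to 775.5.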

How the results depend on the processing

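Of 200 values of the class counts under alternatives other than leaving out an array, 186 stayed within 1.5 times the count reported, and 8 of the 14 others came from scaling to the hybridization controls. Under that scaling, 1-cell embryos against oocytes gave 0 cytosolic enzymes higher and 9 lower and 6 mitochondrial lower, 8-cell against 2-cell embryos gave 2 cytosolic higher, 2 lower and 0 mitochondrial higher, and blastocysts against 8-cell embryos gave 0 lower in either class. It also turned the changes of Farsb (-0.47) and Kars (-0.42) in 1-cell embryos and of Qars (0.20) and Yars (1.00, called, adjusted p = 0.0262) in blastocysts against 8-cell embryos. Centring on the array median gave 1 cytosolic enzyme higher in 1-cell embryos, 2 mitochondrial lower in 2-cell embryos (also under quantile normalization) and 1 cytosolic lower in blastocysts against oocytes. With the probe set of largest variance, 2 cytosolic enzymes were lower in 8-cell embryos and 0 in blastocysts against 8-cell embryos, and Eprs turned to -0.63 in 1-cell and 0.63 in 2-cell embryos. The cause of these shifts was not tested. Leaving out 1 array moved the count of cytosolic enzymes higher in 1-cell embryos to between 1 and 4, of mitochondrial enzymes lower in 2-cell embryos to between 1 and 2, and of cytosolic enzymes lower in blastocysts against oocytes to between 1 and 2. With the replicate number as a block every count stayed within 1.5 times (10 and not 8 cytosolic enzymes higher in 8-cell embryos, 9 and not 8 lower in 2-cell embryos), and 126 of 130 gene calls were the same. Over 2330 values of single genes, 2199 kept direction and call, 50 lost the call, 75 gained one and 6 turned. Signals under the intensity filter limit what can be said of Vars, Hars2 and Iars2 before the stage at which they passed it.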
